A study of Mus musculus and Rattus norvegicus with 12 samples.

Results

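The immediate early transcription factors described here are 10 genes, namely Fos, Fosb, Fosl1, Jun, Junb, Egr1, Egr2, Egr3, Nr4a1 and Myc. They were found by matching these symbols, with case ignored, in 2 tables of read counts, which gave 10 of 54087 symbols in the mouse and 10 of 28909 in the rat. The study sequenced RNA from 12 samples, 3 in each of 4 groups, with Jmjd4, which encodes a JmjC oxygenase, as the targeted gene. Its title names the degradation of the pyruvate kinase PKM2 and dilated cardiomyopathy. The flox group was heart apex of control mice with the genotype Jmjd4f/f, which carry no Cre. The cKO group was heart apex of mice with the genotype MCM+ Jmjd4f/f, in which a Cre that tamoxifen activates is driven by the Myh6 promoter of cardiomyocytes. Mice of both groups were given tamoxifen and sampled at day 14. The sources used here give neither their strain nor their age or sex. Because flox mice lack the transgene, what Cre does and what the loss of Jmjd4 does cannot be told apart. The apex holds every cell type of the heart, although the labels call the samples cardiomyocytes. NRVCs are ventricular cells from 1-day-old Sprague-Dawley (SD) rats, cultured after a step that removes quickly attaching cells. They were given a control siRNA (si-NC, here siNC) or an siRNA against Jmjd4 (si-Jmjd4, here siJmjd4) for 48 h. The labels do not say whether the replicates of a group were separate animals or cell isolations, so p-values measure only the spread between these samples.

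Immediate early genes are transcribed within minutes of a signal by factors that the cell already holds, chiefly SRF with its ternary complex partners and CREB, which MAP kinases and other kinases activate. FOS and JUN proteins pair to form AP-1, EGR proteins are zinc finger activators held back by the NAB corepressors, NR4A1 is an orphan nuclear receptor, and MYC drives growth genes as a partner of MAX. In heart muscle the family is known for its brief response to stretch, hypertrophic hormones, ischaemia and handling of the tissue.

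Stretches of 250 bases upstream of transcription starts are shown for 4 of the factors. Such windows can hold sites through which immediate early genes are switched on, although sites further upstream fall outside them. The log2 fold changes of these 4 in the hearts ran from 0.83 for Fos to 5.45 for Egr2. Those of Jun and Fosl1, which are not shown, were smaller. The RefSeq table of promoters (GRCm38.p6) held 6 of the 10 genes. Fosl1, Egr1, Egr3 and Myc had no entry. Each sequence is written 5′ to 3′ on the strand of its gene. Capitals mark TGACG, the core of the cAMP response element that CREB binds, on either strand, where it reads CGTCA on the other, and GCGNGGGCG, the EGR motif, on either strand.
Egr2, chr10:67535249-67535498, plus strand: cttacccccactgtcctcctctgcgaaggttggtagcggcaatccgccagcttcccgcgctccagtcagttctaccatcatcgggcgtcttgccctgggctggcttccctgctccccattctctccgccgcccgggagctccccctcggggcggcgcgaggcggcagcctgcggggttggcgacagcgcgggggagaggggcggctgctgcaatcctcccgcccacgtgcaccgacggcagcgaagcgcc
Junb, chr8:84978749-84978998, minus strand: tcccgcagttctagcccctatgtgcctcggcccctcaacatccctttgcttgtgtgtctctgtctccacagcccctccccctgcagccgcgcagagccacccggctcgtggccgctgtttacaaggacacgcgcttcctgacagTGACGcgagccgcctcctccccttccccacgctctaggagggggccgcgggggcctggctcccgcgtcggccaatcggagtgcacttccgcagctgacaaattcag
Fos, chr12:85473640-85473889, plus strand: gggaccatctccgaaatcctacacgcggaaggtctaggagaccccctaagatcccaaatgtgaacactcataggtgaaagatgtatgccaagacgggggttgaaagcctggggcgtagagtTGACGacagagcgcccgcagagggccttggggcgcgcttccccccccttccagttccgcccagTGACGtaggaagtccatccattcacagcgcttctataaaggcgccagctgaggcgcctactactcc
Nr4a1, chr15:101266596-101266845, plus strand: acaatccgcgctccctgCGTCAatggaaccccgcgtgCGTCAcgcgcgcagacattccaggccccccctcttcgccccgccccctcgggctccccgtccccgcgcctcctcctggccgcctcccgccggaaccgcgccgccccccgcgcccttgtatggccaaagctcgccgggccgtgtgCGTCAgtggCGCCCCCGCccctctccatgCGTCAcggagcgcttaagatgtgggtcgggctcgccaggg

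TGACG was found 4 times in the window of Nr4a1, 2 times in that of Fos, 1 time each in those of Junb and Fosb, and 0 times in those of Egr2 and Jun. It occurs in 17.9% of all 32536 RefSeq windows of this length. The EGR motif was found 1 time each in the windows of Nr4a1 and Fosb and occurs in 4.74% of all windows. None of the 6 windows held a CArG box, the SRF motif (1.48% of all windows), the full cAMP response element TGACGTCA, which contains the core (1.56%), or the AP-1 motif TGANTCA (6.73%), each searched on both strands. The window of Egr2 held 1 E-box CACGTG (6.04% of all windows), that of Fos 1 TATAAA (12.3%) and that of Nr4a1 1 ETS core CCGGAA (12.1%). These are matches of letters only, and sites outside the windows were not searched. Egr2 has 5 starts in the RefSeq table, and the window of the start nearest to the GENCODE gene start, 24 bases away, was taken. The only RefSeq start of Nr4a1 lies 12577 bases from its GENCODE gene start.

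The 12 libraries held 57174654 to 82187009 counts each. Among heart libraries flox replicate 3 stood apart, with 41.7% of its counts from the mitochondrial genome and 1485 tested genes without a count (others 125 to 503). The mitochondrial share was 24.1% and 23.9% in flox replicates 1 and 2. In cKO hearts it was 17.0%, 19.5% and 14.2%, so every flox library lay above every cKO library. In the rat, siNC replicate 3 lacked counts for 461 tested genes (others 78 to 137). Fold changes and counts of calls are therefore also given without flox replicate 3 or siNC replicate 3 where that changes them. Per-kilobase orders, most-like genes and shares of groups without overlap mostly use all libraries. Values of single libraries are CPM, in the order of replicates 1, 2 and 3. CPM are counts scaled to the size of each library times its TMM factor, which evens out typical genes between libraries. That factor was 1.057, 1.064 and 0.441 in flox hearts and 1.315, 1.136 and 1.349 in cKO hearts. It was 0.827 for siNC replicate 3 (other NRVCs 1.01 to 1.05). A low factor raises the CPM of flox replicate 3 and siNC replicate 3 above what library size alone would give. The mitochondrial share and the factor both split the hearts by group, so library make-up and genotype cannot be told apart. Jmjd4 was at 19, 8.04 and 16.9 CPM in flox hearts against 8.95, 4.92 and 9.63 CPM in cKO hearts, and the groups overlapped (log2 fold change -0.90, edgeR's quasi-likelihood test, adjusted p = 0.3973). In the NRVCs its values were 3.46, 4.4 and 0.982 CPM with siNC against 3.58, 3.43 and 3.52 CPM under the siJmjd4 label (log2 fold change 0.25, adjusted p = 0.7698 in the same test, and -0.16 without siNC replicate 3). A lower Jmjd4 transcript was thus not detected under the siJmjd4 label, and every direction given for the NRVCs rests on that label alone.

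In the hearts, cKO set against flox asks which factors differ once the knockout has been induced. All 10 factors had the higher mean in cKO hearts, and the widest gaps were those of Egr2, Egr3 and Myc. Egr2 averaged 12 ± 4.24 CPM in cKO against 0.257 ± 0.224 CPM in flox hearts (SD, n = 3), and Myc 5.51 ± 0.583 against 1.58 ± 0.586 CPM. With all 6 libraries 0 of the 10 were called at an adjusted p under 0.05 (edgeR's quasi-likelihood test over 18094 genes), where 67 genes, or 0.37% of those tested, were called higher in cKO. The unadjusted p was below 0.05 for 4 of the 10, as it was for 2715 of all 18094 genes. Without flox replicate 3, the same test called Egr2 and Myc, against 4.26% of all genes tested. On all 6 libraries DESeq2's Wald test called Junb, Egr2 and Myc (5.29% of all genes were called higher), and limma voom with quality weights called those and Egr3 and Nr4a1 (12% of all genes).

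**Figure D1:**
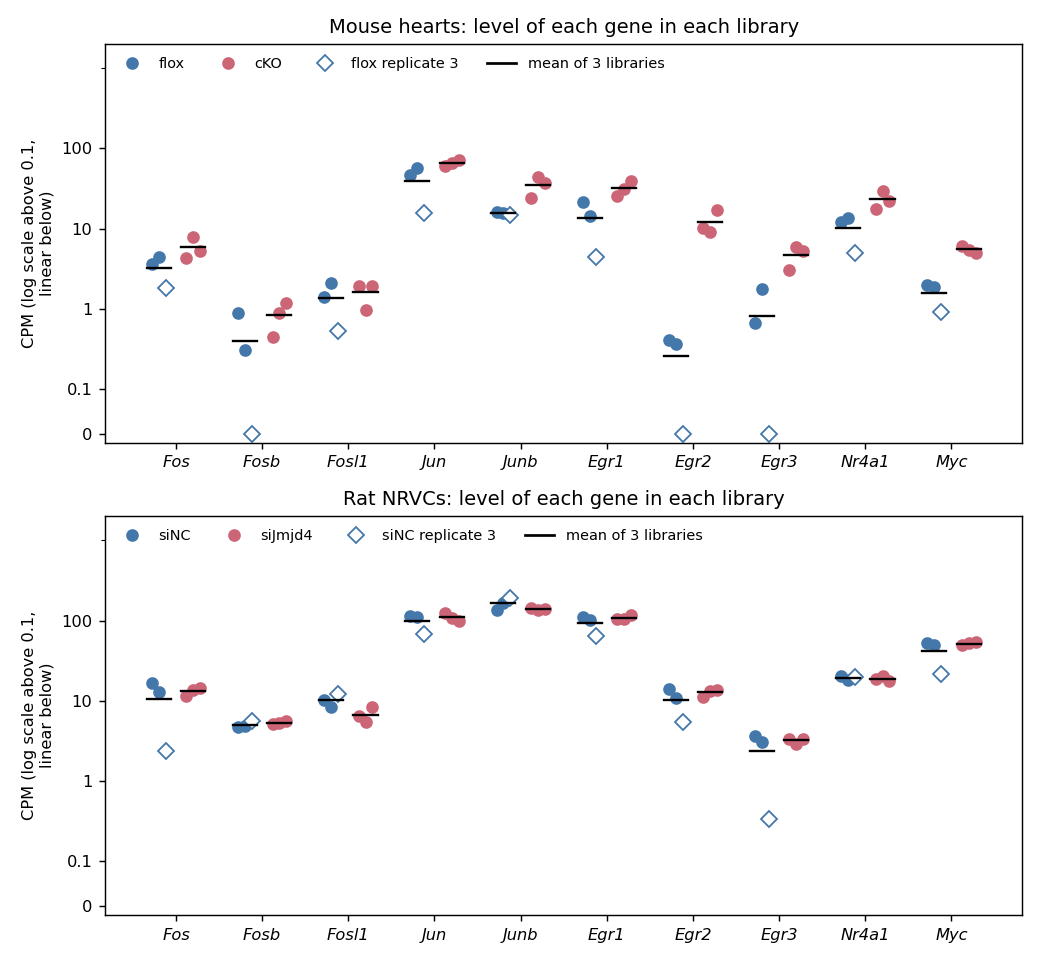
Level of each of the 10 factors in each library in CPM (y axis, log scale above 0.1 and linear below), with hearts above and NRVCs below, circles for libraries, open diamonds for flox replicate 3 and siNC replicate 3 and bars for the mean of 3 libraries. In the hearts all cKO circles lie above all flox points for Jun, Junb, Egr1, Egr2, Egr3, Nr4a1 and Myc, and flox replicate 3 is the lowest point for every gene.

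Every cKO library lay above every flox library for 7 of the 10 factors, namely Jun, Junb, Egr1, Egr2, Egr3, Nr4a1 and Myc, and 14.9% of all genes tested had that order. The same 7 kept it when set against flox replicates 1 and 2 only, where 23.6% of all genes did. Flox replicate 3 was the lowest of the 6 libraries for all 10 and had 0 counts for Fosb, Egr2 and Egr3. A count of 0 there allows up to 0.0847 CPM, which covers counting error only. All 10 passed the filter on low counts, but Fosb, Egr2 and Egr3 reached its cutoff of 0.138 CPM in only 2 flox libraries and so passed through the cKO group, in which they were higher. Over the 10 the median log2 fold change was 1.19, against 0.000343 over all genes tested, and 0.851 against 0.0201 without flox replicate 3. These medians are a description of the 10 genes.

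Egr2, known for myelination by Schwann cells and for macrophage and T cell states, was at 0.41, 0.36 and 0 CPM in flox hearts, from 32, 28 and 0 counts. In cKO hearts it was at 10.2, 9.01 and 16.9 CPM, from 968, 709 and 1509 counts. The gene was thus near the bottom of the measured range in each flox library and well within it in each cKO library, and its mean went from the 9.67th to the 55.8th percentile of tested genes. The log2 fold change was 5.45 (SE 0.96), or 43.8-fold, and did not pass (edgeR's quasi-likelihood test, adjusted p = 0.0740). With flox replicate 3 left out it was 4.96 (SE 0.40), or 31.1-fold, and passed (adjusted p = 0.00335). Over all alternatives the adjusted p ran from 3.571e-09 to 0.3848.

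Egr3, a relative that acts in muscle spindles and lymphocytes, was at 0.67, 1.76 and 0 CPM in flox and at 3.06, 5.86 and 5.31 CPM in cKO. Egr1, the broadly induced founder of the family, was at 21.5, 14.2 and 4.46 CPM in flox and at 25.5, 31.3 and 38.9 CPM in cKO. Neither gene had overlapping groups, but the flox values were spread widely and the lowest cKO value of Egr1 lay close to the highest flox value. Their log2 fold changes were 2.51 (SE 1.16, adjusted p = 0.373) and 1.25 (SE 0.56, adjusted p = 0.360) in edgeR's quasi-likelihood test. Leaving out flox replicate 3 gave 1.96 (adjusted p = 0.0683) and 0.84 (adjusted p = 0.121), and neither passed.

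Of the JUN genes, Junb, a partner of FOS that often restrains JUN, was at 16.2, 15.7 and 14.7 CPM in flox and at 24.3, 44.4 and 37.5 CPM in cKO. On this scale the 3 flox libraries lay close together, flox replicate 3 among them, and all cKO libraries were higher. The flox values came from 1276, 1206 and 522 counts, so the level of flox replicate 3 rests on its low TMM factor. The log2 fold change was 1.19 (SE 0.32), or 2.28-fold, and did not pass (edgeR's quasi-likelihood test, adjusted p = 0.15, and 1.15 with adjusted p = 0.0574 without flox replicate 3). Jun, the main AP-1 subunit, was at 47.0, 56.6 and 15.7 CPM in flox and at 60.8, 65.0 and 70.9 CPM in cKO. The groups did not overlap, and flox replicate 3 was 3.29-fold below the mean of the other flox libraries. The fold change shrank with that library left out, from a log2 value of 0.72 (SE 0.49, adjusted p = 0.557) to 0.34 (adjusted p = 0.368 in the same test).

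In the FOS group the groups overlapped for all 3 genes. Fos, the AP-1 subunit that needs a JUN partner, was at 3.59, 4.41 and 1.81 CPM in flox and at 4.34, 7.82 and 5.32 CPM in cKO. Its log2 fold change was 0.83 (SE 0.43, edgeR's quasi-likelihood test, adjusted p = 0.435), and 0.54 without flox replicate 3. Fosb, a relative with a stable splice form in brain, ranged from 0 to 0.878 CPM in flox and from 0.441 to 1.17 CPM in cKO (log2 fold change 1.04, SE 1.18, adjusted p = 0.757), and its log2 fold change was 0.48 without flox replicate 3. Fosl1, which encodes FRA1, was at 1.42, 2.09 and 0.54 CPM in flox and at 1.91, 0.98 and 1.94 CPM in cKO. Its log2 fold change turned from 0.25 (SE 0.59, adjusted p = 0.902) to -0.12 (adjusted p = 0.906) without flox replicate 3, so no direction can be given.

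Myc, the growth regulator, was at 1.97, 1.86 and 0.90 CPM in flox and at 6.14, 5.42 and 4.98 CPM in cKO. The groups were well apart, with the lowest cKO library above all flox libraries. The log2 fold change was 1.80 (SE 0.40), or 3.48-fold (edgeR's quasi-likelihood test, adjusted p = 0.105). Without flox replicate 3, Myc was 2.89-fold higher and passed (log2 fold change 1.53, SE 0.27, adjusted p = 0.0219). Nr4a1, which responds to many of the same signals as Fos, was at 12, 13.5 and 5.03 CPM in flox and at 17.8, 29.8 and 22.1 CPM in cKO. The groups did not overlap. Its log2 fold change of 1.19 (SE 0.44) did not pass in edgeR's quasi-likelihood test (adjusted p = 0.277), nor did that of 0.87 without flox replicate 3 (adjusted p = 0.0998).

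**Figure D2:**
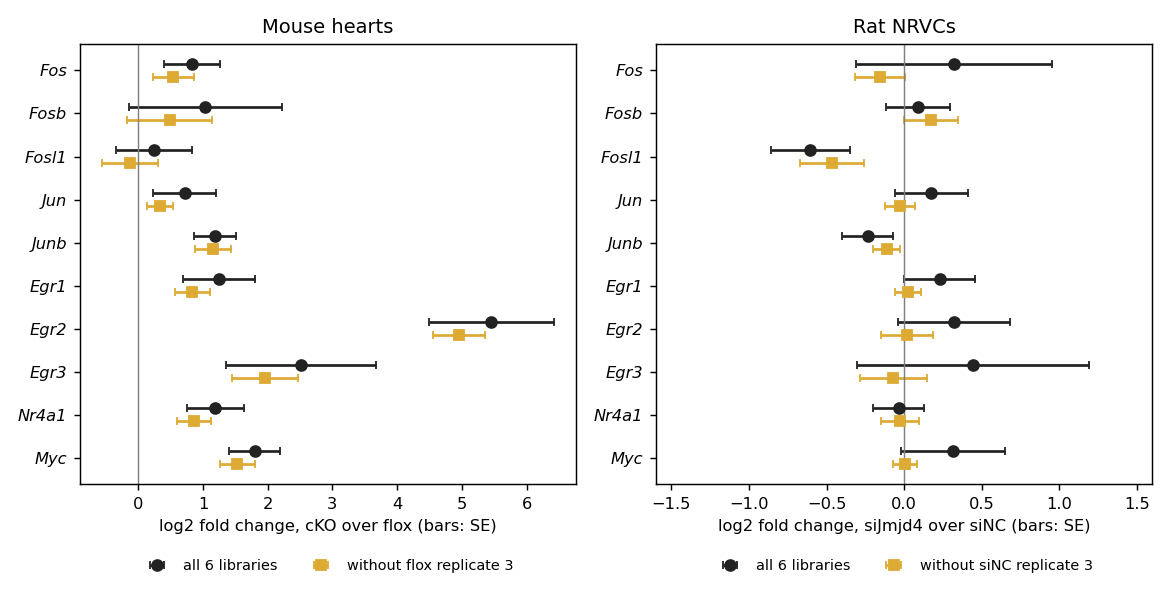
Log2 fold change of each factor (x axis, bars for the SE from edgeR), cKO over flox hearts on the left and siJmjd4 over siNC NRVCs on the right, with all 6 libraries in black and without flox replicate 3 or siNC replicate 3 in yellow. In the hearts 10 of 10 black points lie above 0, with Egr2 at 5.45, while in the NRVCs the points lie between -0.60 and 0.44.

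On GRCm38 Egr2 lies on chromosome 10 from 67535475 to 67542188 (plus strand), Egr3 on chromosome 14 from 70077203 to 70082614 (plus strand), and Myc and Nr4a1 on chromosome 15, from 61985391 to 61990374 and from 101254269 to 101274795 (both plus strand). Fos lies on chromosome 12 from 85473890 to 85477273 (plus strand), Fosb on chromosome 7 from 19302696 to 19310051 (minus strand), Jun on chromosome 4 from 95049034 to 95052222 (minus strand), Junb on chromosome 8 from 84974484 to 84978718 (minus strand) and Fosl1 on chromosome 19 from 5447547 to 5455946 (plus strand). GENCODE M21 places another gene over 3 of the 10, and whether the counting used strand is not given, so reads of such pairs may not be separable. Prdx2, a peroxidase on the strand opposite to Junb, was at 196 to 788 CPM in flox and 152 to 285 CPM in cKO hearts (log2 fold change -1). Junos, antisense to Jun, was at 0.331 to 0.621 CPM in flox and 0.252 to 0.514 CPM in cKO. Ccdc85b, opposite to Fosl1, was at 15.8 to 48.8 and 11.9 to 33.6 CPM. None of the 3 partners had a log2 fold change above 0.

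Per kilobase of transcript, the scale on which genes can be set against each other, Jun and Junb led in flox hearts, at 12.5 and 8.59 CPM per kb. Nr4a1 (3.99), Egr1 (2.99) and Fos (1.55) followed, and Fosl1, Myc, Egr3, Fosb and Egr2 lay under 1, from 0.724 down to 0.0866. Of neighbours in that order, only Junb and Nr4a1 had ranges over 3 libraries that did not overlap. In cKO hearts the order was Jun (20.6), Junb (19.6), Nr4a1 (9.11), Egr1 (7.12), Egr2 (4.05), Fos (2.76), Myc (2.36), Egr3 (1.2), Fosl1 (0.864) and Fosb (0.221 CPM per kb). Egr2 thus stood at rank 10 in flox hearts and at rank 5 in cKO hearts. Neighbours apart from each other in cKO were Junb and Nr4a1, Egr1 and Egr2, Myc and Egr3, and Fosl1 and Fosb.

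The make-up of the EGR group differed between the hearts. For every 100 counts of Egr1 there were 1.89, 2.56 and 0 counts of Egr2 in flox hearts against 39.8, 28.8 and 43.3 counts in cKO hearts. The groups did not overlap, and this ratio within a library does not depend on scaling between libraries. Counts of Egr3 per 100 of Egr1 were 3.13, 12.4 and 0 in flox and 12, 18.7 and 13.6 in cKO, and these groups overlapped. There were 4.2, 3.28 and 5.75 counts of Myc per 100 of Jun in flox against 10.1, 8.34 and 7.03 in cKO, again without overlap. Ratios of Fosb to Fos, and of Fos, Junb and Nr4a1 to Jun, were also taken in the hearts, and all had overlapping groups. For Junb and Nr4a1 the overlap came from flox replicate 3. In the NRVCs, Egr2 stood at 12.8, 10.8 and 8.49 per 100 counts of Egr1 with siNC and at 10.6, 12.8 and 11.9 under the siJmjd4 label, with overlapping groups. These ratios were not tested.

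**Figure D3:**
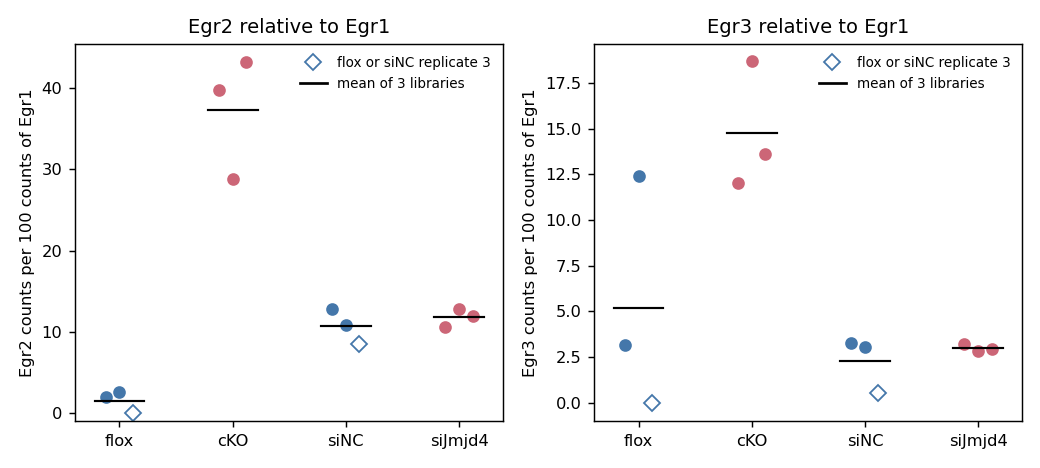
Counts of Egr2 (left) and Egr3 (right) per 100 counts of Egr1 in each library (y axis) for the 4 groups, with circles for libraries, open diamonds for flox replicate 3 and siNC replicate 3 and bars for the mean of 3 libraries. The cKO hearts lie between 28.8 and 43.3 counts of Egr2, above all flox hearts, and both NRVC groups lie between 8.49 and 12.8.

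In the NRVCs, libraries labelled siJmjd4 were set against siNC to ask whether the same factors differ after knockdown in cultured cells. None of the 10 passed (edgeR's quasi-likelihood test over 15497 genes, of which 1, or 0.00645%, was called in either direction), and for 0 of the 10 was the unadjusted p below 0.05. With limma voom and with DESeq2's Wald test 0 passed as well. The log2 fold changes lay between -0.60 and 0.44, with 7 above 0 and a median of 0.204. Without siNC replicate 3, 4 were above 0, the median was -0.0273, and still 0 passed, where 0.57% of all genes tested did.

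Most of the spread among siNC libraries came from replicate 3, which was the lowest of all 6 NRVC libraries for Fos, Jun, Egr1, Egr2, Egr3 and Myc. Against the mean of siNC replicates 1 and 2 it was 9.96-fold lower for Egr3, 6.21-fold lower for Fos, 2.37-fold lower for Myc and 2.32-fold lower for Egr2. For Fosb, Fosl1, Junb and Nr4a1 its values were 1.18, 1.31, 1.26 and 1.02 times that mean. Fos was at 16.8, 12.8 and 2.38 CPM with siNC and at 11.6, 13.7 and 14.7 CPM under the siJmjd4 label. The 5 libraries other than siNC replicate 3 thus lay close together, and the log2 fold change moved from 0.32 (SE 0.63, edgeR's quasi-likelihood test, adjusted p = 0.756) to -0.15 without it.

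Egr2 was at 14.2, 10.9 and 5.42 CPM with siNC and at 11, 13.4 and 13.9 CPM under the siJmjd4 label (log2 fold change 0.32, 95% interval -0.55 to 1.19). Myc was at 52.8, 50.4 and 21.8 CPM with siNC and at 49.1, 52.6 and 53.9 CPM under the siJmjd4 label (0.32, interval -0.49 to 1.12). Without siNC replicate 3 both log2 fold changes were close to 0, at 0.02 and 0.01. Egr1 was at 111, 102 and 63.8 CPM against 104, 104 and 117 CPM, and Jun at 113, 113 and 67.5 CPM against 123, 109 and 99.5 CPM. Egr3 was at 3.67, 3.10 and 0.34 CPM against 3.34, 2.93 and 3.40 CPM. For all 3 the groups overlapped and siNC replicate 3 was the low library, and without it the log2 fold changes were 0.02, -0.03 and -0.07.

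Junb, at 137, 166 and 192 CPM with siNC and 144, 136 and 140 CPM under the siJmjd4 label, had a log2 fold change of -0.24 (SE 0.16, adjusted p = 0.410 in edgeR's quasi-likelihood test). Fosb (4.72 to 5.63 against 5.10 to 5.67 CPM) and Nr4a1 (18.1 to 20.5 against 17.5 to 20.4 CPM) had the narrowest ranges. Their log2 fold changes were 0.09 and -0.04 (SE 0.20 and 0.16). Without siNC replicate 3 the values of Junb, Fosb and Nr4a1 were -0.11, 0.17 and -0.02. With all 6 libraries Fosl1 was the only factor whose groups did not overlap, at 10.2, 8.40 and 12.2 CPM with siNC and at 6.50, 5.40 and 8.30 CPM under the siJmjd4 label. It was 1.52-fold lower there (log2 fold change -0.60, SE 0.25, adjusted p = 0.379), and -0.46 without siNC replicate 3 (adjusted p = 0.212), and neither value passed. Groups without overlap were found for 40.2% of all genes tested in the NRVCs. With siNC replicate 3 left out, Fosb did not overlap either, at 4.72 and 4.8 CPM with siNC and 5.10 to 5.67 CPM under the siJmjd4 label. Fewer libraries make such an order easier to reach, and its share over all genes was not counted, so it says nothing particular about Fosb.

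Per kilobase, with the length of the mouse transcript of the same symbol, Junb led in siNC cells at 91.2 CPM per kb and under the siJmjd4 label at 77.5, ahead of Jun (30.6 and 34.6), Egr1 (20.6 and 24.1), Myc (17.8 and 22.2) and Nr4a1 (7.59 and 7.41). Fos (5.05 and 6.31), Fosl1 (5.5 and 3.61) and Egr2 (3.44 and 4.3) came next, and Fosb (1.33 and 1.42) and Egr3 (0.601 and 0.818) were last in both groups. In siNC cells the ranges of Jun, Egr1 and Myc overlapped from one to the next, and so did those of Fosl1, Fos and Egr2. Under the siJmjd4 label only Nr4a1 with Fos, and Egr2 with Fosl1, overlapped their neighbour. Levels of hearts and NRVCs come from tables scaled separately and were not set against each other.

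Whether a factor responded differently in the hearts and in the NRVCs was tested as the difference of the log2 fold changes, in 1 edgeR model of all 12 libraries over 13482 genes paired by symbol. Egr2 passed, with a fold change higher in the hearts by 5.10 on the log2 scale (SE 0.95, adjusted p = 0.0244), and was the only one of the 10, where 1.34% of all genes tested passed in that direction. It kept the call without flox replicate 3 and siNC replicate 3 (4.93, adjusted p = 0.000356). With each of the 12 libraries left out in turn the difference of Egr2 ran from 4.62 to 5.52, and it missed the threshold in 7 of those 12 fits, namely without flox replicate 2, cKO replicate 1 or 3, siNC replicate 2 or any library labelled siJmjd4 (largest adjusted p = 0.0925 in the same test). Junb had a difference of 1.42 (SE 0.37, adjusted p = 0.0797), Myc of 1.47 (SE 0.52, adjusted p = 0.194) and Egr3 of 2.05 (SE 1.42, adjusted p = 0.516). Without both libraries these 3 passed too, at 1.26 (adjusted p = 0.0267), 1.51 (adjusted p = 0.00203) and 2.02 (adjusted p = 0.0479), so that 4 of the 10 did, against 7.16% of all genes. For the other 6 factors the difference did not pass in either fit. Species, age, culture and time differ between the systems, and their parts cannot be told apart.

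Genes that act with the 10 factors were taken from 8 lists by known role. As background, 67 of all 18094 genes tested in the hearts were called higher and 25 lower, and their median log2 fold change was 0.000343. In the fit without flox replicate 3, 813 of 19094 genes (4.26%) were called higher, and the median was 0.0201. Among 10 relatives of the same families in the hearts, 0 were called, 9 had values above 0 and the median was 0.817 (0.627 without flox replicate 3). Atf3, a stress-induced partner of JUN proteins, was at 2.95, 2.89 and 6.55 CPM in flox and at 10.8, 18.6 and 14.6 CPM in cKO. Here flox replicate 3 was the highest of its group, and all cKO libraries were higher still. Its log2 fold change of 1.83 (SE 0.44) did not pass (edgeR's quasi-likelihood test, adjusted p = 0.121), and that of 2.33 without flox replicate 3 did (adjusted p = 0.0104). Mycl (1.57, adjusted p = 0.334) and Batf3 (1.01, adjusted p = 0.514) came next by p and did not pass in either fit.

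Of 35 other immediate early genes, which encode kinase phosphatases, RNA decay factors and growth regulators besides transcription factors, 0 were called, 33 had values above 0 and the median was 0.775. With flox replicate 3 left out, 8 were called higher and the median was 0.575. The 8 were Ier3, Maff, Mafk, Cyr61, Gadd45b, Gadd45g, Socs3 and Cebpd. Mafk, a small MAF protein, was at 31.5, 33.8 and 22.5 CPM in flox and at 71.9, 86.7 and 75.0 CPM in cKO (log2 fold change 1.41, SE 0.31). Maff (1.48) and Gadd45g, a growth arrest gene (2.13), followed by p. Their cKO libraries lay above all flox libraries, and with all 6 libraries the 3 genes had adjusted p = 0.101, 0.109 and 0.120 (edgeR's quasi-likelihood test). The 2 genes with values below 0 were Dusp1 and Klf10. Dusp1, the phosphatase that switches off MAP kinases, was at 70.1, 84.6 and 60.4 CPM in flox and 41.5, 58.9 and 36.8 CPM in cKO (log2 fold change -0.65, adjusted p = 0.414). Klf10, a zinc finger factor, was at 21.6, 16.9 and 14.3 CPM in flox and 11.5, 13.8 and 17.6 CPM in cKO (-0.30, adjusted p = 0.731). Both were named after their values were seen, and neither passed.

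Of 14 known AP-1 targets, 1 was called, 12 had values above 0 and the median was 0.764. Ereg, the EGF receptor ligand epiregulin, rose 21-fold in cKO hearts. It was at 0.153, 0.156 and 0.198 CPM in flox and at 2.86, 3.41 and 4.33 CPM in cKO, with narrow groups far apart (log2 fold change 4.39, SE 0.43, edgeR's quasi-likelihood test, adjusted p = 0.0255). The call was lost, at adjusted p = 0.1133 to 0.1925, when any 1 library other than flox replicate 3 was left out. Hbegf, another ligand of that receptor, was at 12.4, 11.9 and 11.2 CPM in flox and at 36.4, 50.1 and 41.9 CPM in cKO (log2 fold change 1.85, adjusted p = 0.0508, and adjusted p = 0.00967 without flox replicate 3). Il6, an inflammatory cytokine, was at 0.0636, 0 and 0 CPM in flox and at 1.02, 1.33 and 2.43 CPM in cKO (adjusted p = 0.0879, and 0.0291 without flox replicate 3). Leaving that library out, Plaur, Timp1, Il6, Hbegf and Ereg were called and the median was 0.939.

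The listed inhibitors that limit the response showed values above 0 in 15 of 15 genes, with a median of 0.561 and 0 called. That list leaves out Dusp1, which also limits MAP kinases. It was counted among the other immediate early genes and had a log2 fold change of -0.65. Spry1, a Sprouty inhibitor of receptor tyrosine kinase signalling, was at 30.4, 26.2 and 17.1 CPM in flox and at 70.3, 73.3 and 69.6 CPM in cKO. Its groups were well apart, and the log2 fold change was 1.53 (edgeR's quasi-likelihood test, adjusted p = 0.0991). With flox replicate 3 left out it was 1.33 and passed (adjusted p = 0.0138). The MAP kinase phosphatases Dusp6 (0.81, adjusted p = 0.306) and Dusp8 (0.65, adjusted p = 0.435) did not pass. With flox replicate 3 left out, 12 of 15 were above 0 and the median was 0.387.

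The medians of genes that act before the factors lay close to that of all genes. Of 11 SRF, ternary complex and CREB factors, 6 were above 0, 0 were called and the median was 0.0506 (-0.224 without flox replicate 3). Srf itself was at 116, 108 and 94.4 CPM in flox and at 98.9, 132 and 114 CPM in cKO, with overlapping groups. By p the first 3 were Elk1 (-0.48, adjusted p = 0.461), Elk3 (0.32) and Mkl1 (0.88), and none passed edgeR's quasi-likelihood test. With scaling to total counts, which raised the median of all genes to 0.538, Elk1 was at 0.14. Of 24 genes of the MAP kinase cascade, 11 were above 0, 0 were called and the median was -0.0657. The 24 are MAP kinases, kinases that act before them and kinases that they activate. Mapk10, the kinase JNK3, was at 17.2, 19.7 and 19.5 CPM in flox and at 8.02, 7.98 and 4.97 CPM in cKO (log2 fold change -1.43, adjusted p = 0.0996), and was called lower without flox replicate 3 (-1.40, adjusted p = 0.0297). Map2k6 (-1.15) and Mapk14 (-0.95), of the p38 branch, did not pass in either fit.

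The medians of partners and targets of MYC lay close to that of all genes. Of 10 partners and rivals in the MAX network, 5 were above 0, 0 were called and the median was 0.0248 (-0.0424 without flox replicate 3). Mxd3 (2.15, adjusted p = 0.435), Mlxipl (-1.10, adjusted p = 0.479) and Mlx (-0.83, adjusted p = 0.538) had the smallest p-values in edgeR's quasi-likelihood test, and Mlx was at 0.05 with scaling to total counts. Of 20 known growth and nucleolar targets of MYC, 8 were above 0, 0 were called and the median was -0.0749 (0.104 without flox replicate 3). Ccnd2, the cyclin D2 gene, was at 104, 97.2 and 39.9 CPM in flox and at 284, 153 and 169 CPM in cKO (log2 fold change 1.33, adjusted p = 0.271). Dkc1 (-0.68, adjusted p = 0.282) and Rrp9 (-0.64, adjusted p = 0.384), of ribosome assembly, had values below 0, and none of these genes passed.

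**Figure D4:**
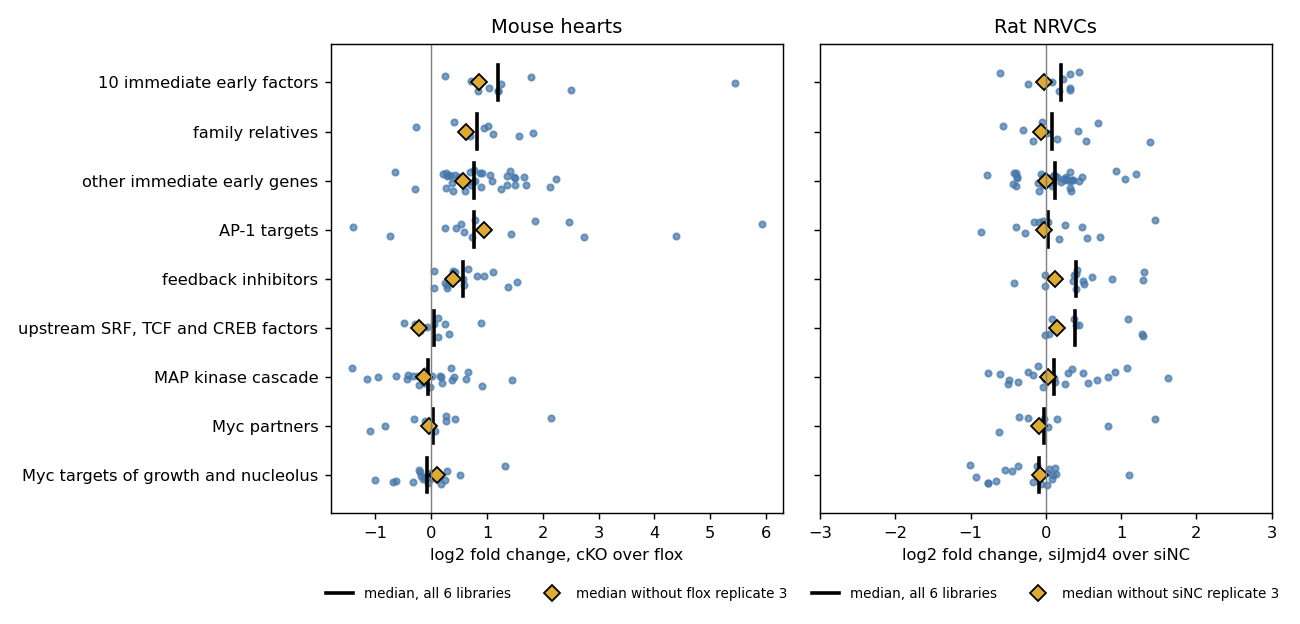
Log2 fold change of each gene (points, x axis) of the 10 factors and of 8 lists of related genes (y axis) in hearts (left) and NRVCs (right), with black bars for the median of all 6 libraries and yellow diamonds for the median without flox replicate 3 or siNC replicate 3. In the hearts the medians run from 1.19 for the 10 factors to -0.0749 for the targets of MYC, and in the NRVCs from 0.407 for the inhibitors to -0.0847 for the targets of MYC.

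In the NRVCs 0 genes of the 8 lists were called, with all 6 libraries and without siNC replicate 3, where 1 and 90 genes of all tested were called. With all 6 libraries the medians were 0.0838 for the relatives, 0.121 for the other immediate early genes and 0.0262 for the AP-1 targets. They were 0.407 for the inhibitors, 0.39 for the SRF, ternary complex and CREB factors and 0.112 for the MAP kinase cascade. The MAX network was at -0.0269 and the targets of MYC at -0.0847. Without siNC replicate 3 the 8 medians lay between -0.0867 and 0.151. Klf6, an immediate early zinc finger factor, was at 14.2, 12.4 and 6.78 CPM with siNC and at 21, 25.4 and 30.3 CPM under the siJmjd4 label (log2 fold change 1.2, edgeR's quasi-likelihood test, adjusted p = 0.379). Its groups did not overlap, and it did not pass without siNC replicate 3 either (adjusted p = 0.0506). It did pass with DESeq2's Wald test (adjusted p = 0.0489), with limma voom (adjusted p = 0.0402) and in edgeR without siNC replicate 3 and siJmjd4 replicate 1 (adjusted p = 0.00214). Ereg, called in the hearts, was at 3.82, 3.43 and 2.0 CPM with siNC and at 5.84, 8.16 and 11.3 CPM under the siJmjd4 label (1.45, adjusted p = 0.379), and it passed under the same 3 alternatives.

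The other genes with the smallest p of their list in the NRVCs shared adjusted p = 0.379 (edgeR's quasi-likelihood test), except Jund, a constitutive JUN relative (-0.17, adjusted p = 0.462). Above 0 were Nr4a3 (1.38) and Fosl2 (0.70) of the relatives, Ptgs2 (1.05), which makes prostaglandins, the CREB family genes Creb1 (1.29) and Atf2 (1.28), the ternary complex factor Elk4 (0.40) and the kinase JNK1 gene Mapk8 (1.08). The inhibitors Spred1 (1.3) and Spred2 (1.29), the MAX network gene Mga (1.45), Ccnd2 (1.10) and the hyaluronan receptor gene Cd44 (0.55) were also above 0. Below 0 were Gadd45g (-0.78), Map2k5 (-0.76), Map2k2 (-0.61), the EGR corepressor gene Nab2 (-0.42), Mxd3 (-0.62), Mlx (-0.35), Srm (-1), Rrp9 (-0.93) and Timp1 (-0.86). None of them passed with all 6 libraries in this test. Of all 24 genes named from the lists in the NRVCs, 2 passed with DESeq2's Wald test and 5 with limma voom. Over all 15497 genes tested, 168 and 611 did. Without siNC replicate 3 and siJmjd4 replicate 1, 14 of the 24 passed, and so did 2470 of all 15620 genes tested. The 24 were picked by smallest p in these same libraries. Their passes were thus favoured in advance and cannot be set against those shares.

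Summed markers of fibroblasts and macrophages were higher in cKO hearts too, and those of cardiomyocytes were lower. In bulk samples fewer cells of a type and less RNA per cell cannot be told apart. The summed level of 7 fibroblast markers was 888 to 1107 CPM in flox and 2063 to 3961 CPM in cKO hearts, with 6 of 7 log2 fold changes above 0. The matrix genes Col1a1 and Col3a1 gave a large part of it in cKO, Col3a1 with 1020, 776 and 2080 CPM. The sum of 6 macrophage markers was 216 to 245 CPM in flox and 376 to 462 CPM in cKO, with 5 of 6 above 0. Below 0 were Dpt (-0.26) and Cd163 (-0.45). These 2 genes, Pdgfra, Mrc1 and C1qa had overlapping groups, and the other markers of both lists did not. The higher sums thus do not stand for each marker. The 7 cardiomyocyte markers summed to 42168 to 62321 CPM in flox, where flox replicate 3 was the highest and the others were at 42168 and 43257 CPM, and to 27024 to 30209 CPM in cKO. Of the 7, 0 had log2 fold changes above 0, and 3 did without flox replicate 3. Myh6 gave the largest part of the sum in flox replicates 1 and 2. It was at 24019, 21425 and 3662 CPM in flox and at 12271, 8509 and 13190 CPM in cKO. Tnnt2 was at 4506, 5232 and 9431 CPM in flox and at 4853, 5937 and 5225 CPM in cKO. Both genes had overlapping groups, so the lower sum does not stand for each marker. The sum for 6 endothelial markers was 407 to 1027 CPM in flox, where flox replicate 3 was the lowest, and 685 to 774 CPM in cKO, and that for 6 smooth muscle and pericyte markers was 910 to 1278 CPM in flox and 821 to 862 CPM in cKO. Lymphocyte and neutrophil markers summed to 3.09 to 5.05 CPM in flox and 4.49 to 6.47 CPM in cKO. With all 6 libraries none of these markers was called by edgeR's quasi-likelihood test, and none was at 0 in all heart libraries. With flox replicate 3 left out, the same test called Pln lower and Tcf21, Lum, Adgre1, Cd68 and C1qa higher. Over all 19094 genes tested in that fit, 560 were called lower and 813 (4.26%) higher. The part of cell make-up in the levels of the 10 factors was not tested.

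Egr2 is a textbook gene of Schwann cells, so 7 of their markers were added after its values had been seen. They summed to 60.2 to 73.1 CPM in flox and 69.4 to 146 CPM in cKO hearts, most of it from Pmp22, a gene that many cell types express. Of the 7, 4 had log2 fold changes above 0 and 3 below, and 0 were called. Sox10, a defining marker, was at 0.254 to 2.01 CPM over the 6 libraries, with overlapping groups. Prx, another of the 7, was at 1.5, 1.91 and 1.81 CPM in flox and at 3.64, 3.33 and 3.7 CPM in cKO. Its groups did not overlap, and 14.9% of all genes tested had that order. The NRVC libraries held cardiomyocyte markers at 11563 to 17386 CPM with siNC and 8824 to 10960 CPM under the siJmjd4 label, beside fibroblast markers at 29100 to 34516 and 33574 to 38928 CPM. The summed smooth muscle and pericyte markers were at 4819 to 8303 and 4682 to 4955 CPM and macrophage markers at 116 to 148 and 125 to 136 CPM. The 5 endothelial markers used here were at 79.2 to 124 and 81.9 to 100 CPM. Cd3e, Cd3d, Ms4a1 and Nkg7 were at 0 in every NRVC library. The part of these cells in the levels of the factors was not tested.

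The 10 factors varied together within the heart groups, and that rested on flox replicate 3. After the group means were subtracted, the Pearson correlation of log2 CPM had a median of 0.858 over the 45 pairs of factors and 6 heart libraries, with 37 pairs above 0.5. Without flox replicate 3 the median was 0.0341, with 13 pairs above 0.5. Fos and Nr4a1 (0.987 with all 6 libraries and 0.99 without it), Fosb and Egr1 (0.998 and 0.983) and Jun and Egr3 (0.991 and 0.898) were pairs with high values in both. In the NRVCs the median was -0.128, with 17 pairs above 0.5, and 0.206 without siNC replicate 3, with 14 pairs above 0.5. Fos and Egr2 were at 0.983 with all 6 NRVC libraries and 0.995 without siNC replicate 3. The points share libraries and their scaling, and they are too few to be more than a description.

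Other genes with a like pattern were ranked by the Pearson correlation of log2 CPM over the 6 libraries of a system, among 10048 mouse and 10026 rat genes with a mean of at least 5 CPM. For Fos in the hearts these were Phc2 (0.996), Pck2 (0.989) and Dpp3 (0.988), for Egr1 Iffo1 (0.997), Slc44a1 (0.993) and Tmc6 (0.993), and for Myc Cyp4v3 (0.999), Synm (0.997) and Tmem106a (0.997). For Egr2, added after its values had been seen, they were Eln (0.999), Dkk3 (0.998) and Spats2 (0.998). In the NRVCs the first for Fos was Snx2 (0.997), for Egr1 Mcam (0.999), for Myc Spast (1) and for Egr2 Rabep1 (0.998). Correlations above 0.99 were found with 1 gene for Fos, 7 for Egr1, 14 for Myc and 27 for Egr2 in the hearts, and with 45, 65, 266 and 13 genes in the NRVCs. Group means were not subtracted here. A difference between the groups, or flox replicate 3 or siNC replicate 3 standing apart, can by itself give such values. Shared regulation was not tested.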

How the data were processed

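RNA was sequenced in 12 samples. The authors deposited their counts as 1 table for the mouse and 1 for the rat, in whole numbers by gene symbol without normalization, from TRIzol RNA and standard Illumina libraries per the labels' protocols. The submitters' processing notes name HISAT2 2.1.0, StringTie 1.3.4, edgeR 3.20.9, mm10 and rn6 without their roles. Counting rules, library kit and strand setting: not given in the sources used here. Total counts ran from 57174654 to 82187009 per library, and replicate pairs had a chi-square per degree of freedom of 27.2 to 1730, far above sampling noise, so none was a duplicate.

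Groups came from the labels. Genes were filtered with filterByExpr (minimum count 10), scaled by TMM and fitted with edgeR's quasi-likelihood test (4.0.16, R 4.3.3), two-sided and robust, with group as the only term. The threshold for a call was 0.05 on p-values adjusted by Benjamini-Hochberg over every tested gene. CPM uses TMM-scaled library sizes, log2 CPM a prior count of 2, and the SE and 95% intervals come from the F statistic and its degrees of freedom. An exact permutation test of 3 against 3 cannot go below 0.1 and was not made. Alternatives were DESeq2 1.42.0, limma 3.58.1 voom, other scalings and filters, a replicate block, a length correction and libraries left out. Lengths and positions come from GENCODE M21 (GRCm38), and promoter sequences from RefSeq (GRCm38.p6).

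The members and lists were chosen with earlier results of these data known. The rule for named genes took all 10 members, up to 3 genes per list by smallest p, every called gene up to 6, and the 3 genes most like Fos, Egr1 and Myc, besides Jmjd4, and the text gives a selection of the last kind for the NRVCs. Srf, Dusp1, Klf10 and the genes like Egr2 were added. Scripts were tested on simulated data. The level of 1 added marker gene is not reported here.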

Additional observations from a re-analysis of the deposited data

Results flagged for a closer look

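The response of Egr2 differed between the systems. On the log2 scale the fold change was 5.45 for hearts (cKO over flox) and 0.32 for NRVCs (siJmjd4 over siNC), and the difference of 5.1 on the log2 scale passed an interaction test in edgeR (adjusted p = 0.0244), but missed the threshold in 7 of 12 fits that each left out 1 library (4.62 to 5.52 on the log2 scale, largest adjusted p = 0.0925). All 3 cKO libraries lay above all 3 flox libraries, while the NRVC groups overlapped. A lower Jmjd4 level was not detected under the siJmjd4 label. In the hearts the Jmjd4 values of cKO and flox overlapped, and their difference did not pass (edgeR's quasi-likelihood test, adjusted p = 0.3973). The parts of species, age and culture cannot be told apart.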

How the results depend on the processing

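In the hearts, 128 of 145 alternative values of the 10 factors kept direction and side of the threshold, 16 crossed it with the same direction, and Fosl1 changed sign (-0.121 to 0.707 with single libraries left out). Factors called numbered 0 with all 6 libraries, 3 with DESeq2's Wald test, 5 with limma voom, 1 with no filter, 1 with the length correction, 4 without flox replicate 3 and cKO replicate 2, and 0 to 2 with single libraries left out, the 2 being without flox replicate 3. Genes called numbered 92, then 20 with total counts, 1748 with DESeq2's Wald test, 3859 with voom, 146 with no filter, 1159 with the length correction, 3585 without flox replicate 3 and cKO replicate 2, and 0 to 1373 with single libraries left out (0 without any but flox replicate 3). Only 78.9% of tested mouse genes had a length, so the length correction is void for the hearts.

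In the NRVCs, 0 factors were called under every alternative run. 17 of 149 values changed sign. With voom these were Fos (-0.0512), Jun (-0.0371), Egr3 (-0.0364) and Nr4a1 (0.0245), without siNC replicate 3 and siJmjd4 replicate 1 Fos (-0.0811), Jun (-0.137) and Egr3 (-0.116), with the length correction Fosb (-0.0644), Junb (0.0323), Egr1 (-0.011) and Nr4a1 (0.0512), and with total counts Nr4a1 (0.0603). Single libraries left out gave -0.153 to 0.81 for Fos, -0.0296 to 0.298 for Jun, -0.0692 to 0.901 for Egr3 and -0.0888 to 0.0206 for Nr4a1, and without siNC replicate 3 the median of the relatives was -0.0613. Genes called numbered 1, then 168 with DESeq2's Wald test, 611 with voom, 2470 without siNC replicate 3 and siJmjd4 replicate 1, and 0 to 90 with single libraries left out. Leaving out single libraries from the difference was chosen after seeing the data. With total counts Elk1 (0.136) and Mlx (0.0536) changed sign in the hearts, as did Jund (0.112) in the NRVCs with the length correction. The cause of these changes was not tested.

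For the difference of the systems, 1 factor was called, 4 without flox replicate 3 and siNC replicate 3, 0 to 2 with single libraries left out, and 0 with the replicate block, where the adjusted p of Egr2 was 0.245. The replicate block called 0 factors and 0 genes in either system. Deviations of same-numbered samples correlated at 0.357, -0.479 and -0.331 in the hearts and at -0.142, -0.0188 and -0.150 in the NRVCs. Flox replicate 3 and cKO replicate 2, of different numbers, reached 0.552. No sign of pairing by number was seen, but so few samples cannot exclude it. With 3 libraries a group, and with flox replicate 3 and siNC replicate 3 apart from the rest, a difference that did not pass is not shown to be absent. Genes with few counts, such as Egr2 and Fosb in flox hearts, have wide errors.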

Other observations

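The balance of FOSB and FOS transcripts was unusual in siNC replicate 3, which held 237 counts of Fosb per 100 counts of Fos. Replicates 1 and 2 of siNC held 28.1 and 37.6, and the 3 libraries labelled siJmjd4 held 44.1, 39 and 38.7. The level of Fos was lowest in that library and that of Fosb was not.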
